A study of Mus musculus with 4 samples.

Results

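CD5 and CD6 are related receptors of the T cell surface, and their genes lie close together on mouse chromosome 19 with Tmem109 nearby. The 3 genes Cd5, Cd6 and Tmem109 were measured by 5 probe sets, the groups of short probes that an array uses to measure a transcript. They are 3 of 8251 genes for which the array had a probe set with a single gene symbol in its annotation, and all their probe sets were taken: 2 for Cd6, 1 for Cd5 and 2 for Tmem109. The members were picked with the difference between anergic and control arrays in view, so their values in that comparison are described here and not tested.

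The study compared a Th1 T cell clone made anergic by antibody against CD3 fixed to a plate (anergic arrays 1 and 2) with the normal, quiescent clone (control arrays 1 and 2). The anergic state and the effect of the antibody signal itself cannot be told apart in this comparison. Anergic T cells, having received a receptor signal without the rest of their normal stimulus, respond poorly to later stimulation. A clone descends from a single cell, so the arrays tell of that line and not of T cells in general, and the labels give no clone name, mouse strain, time after the antibody or statement that replicates were separate cultures. Expression was read as intensity on a linear scale, in arbitrary units, with 1 value per probe set and array.

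CD5 and CD6 belong to the scavenger receptor cysteine-rich family, whose members carry cysteine-rich domains outside the cell. Both are found on most mature T cells, where their inner tails are phosphorylated when the T cell receptor is engaged and gather kinases, phosphatases and adaptors. CD5 is known as a brake on T cell receptor signals, while CD6 has been described both as a brake and as an aid to adhesion and activation through its ligand ALCAM. Tmem109, also called mitsugumin 23, encodes a cation channel of intracellular membranes such as the endoplasmic reticulum and is no relative of the other two.

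The order of these genes along chromosome 19 in the RefSeq gene table (assembly GRCm38.p6) was Cd5, the long non-coding RNA gene A430093F15Rik, Cd6, Slc15a3, Tmem132a and Tmem109. Tmem109 was thus separated from Cd6 by 2 genes, and 0 of the 3 genes that lie between the members had a probe set with a single symbol. Of the 3 members, Cd5 and Tmem109 matched an entry in the RefSeq promoter table, and Cd6 did not. The windows of Cd5 and Tmem109 are shown because these members had an entry there. Whether the members share regulation was not tested. Each runs from 250 bases before to 50 bases after the start of a transcript on the minus strand, written 5′ to 3′, with matches to the searched motifs in capitals. The Cd5 window is chr19:10738925-10739224 and the Tmem109 window is chr19:10881694-10881993, both in GRCm38.p6.
Cd5: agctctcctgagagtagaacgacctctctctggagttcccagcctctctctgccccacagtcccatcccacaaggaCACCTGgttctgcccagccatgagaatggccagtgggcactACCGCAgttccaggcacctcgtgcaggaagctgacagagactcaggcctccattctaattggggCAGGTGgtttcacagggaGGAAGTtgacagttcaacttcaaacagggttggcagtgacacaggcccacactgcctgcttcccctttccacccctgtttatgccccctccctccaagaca
Tmem109: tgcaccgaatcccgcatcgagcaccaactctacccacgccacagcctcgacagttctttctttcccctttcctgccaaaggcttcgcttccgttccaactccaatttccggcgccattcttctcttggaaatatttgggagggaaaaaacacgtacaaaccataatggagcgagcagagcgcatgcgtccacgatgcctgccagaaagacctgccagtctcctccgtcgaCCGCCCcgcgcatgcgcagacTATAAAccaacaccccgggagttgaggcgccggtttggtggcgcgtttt

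Both windows were searched on both strands for 6 short motifs, each spelled out where it is first mentioned. No matches overlapped. The Cd5 window held 1 Ets core, spelled GGAAGT, which began 51 bases before the start. It also held 1 Runx core, spelled TGNGGT, and 2 E-boxes of the form CANCTG, which is narrower than the general E-box. These are common words. Of 32851 RefSeq windows of the same length, 23.8% held the Ets core, 45.8% the Runx core and 51.4% this E-box form. The Tmem109 window held none of these 3 and had 1 GC box, GGGCGG, which is in 35.7% of windows. It also had 1 TATA box, TATAAA, which is in 13.6% of windows and here began just after the start and not before it. The windows also differed in CpG dinucleotides, of which Cd5 had 3 and Tmem109 had 25, against a median of 7 over all windows. The Egr core, GTGGGCG, found in 7.97% of windows, was in neither.

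Of the series as a whole, 12422 probe sets other than controls were present. Of these, 7453 were bright enough to be tested, with a mean log2 value above the 40th percentile. Those of the 7453 with a single gene symbol stood for 5583 genes. The deposited arrays had been scaled to a common trimmed mean of 500.3. Control array 2 stood apart in its 9 bacterial control probe sets, with a geometric mean of 1972 against 870.4 to 1014 on the remaining arrays. The differences without it are therefore given for the members and for some of the other genes. Leaving out an array leaves a single array in its group, so for a gene or probe set only the difference is then given, and no test. Counts of calls from such fits are listed only with the effects of processing, and nothing is read from them. Cd3e and Cd4, markers of helper T cells, were bright on all arrays. Cd3e, a chain of the receptor complex, read 8277.5 and 6808.3 in anergic cells, against 10101.8 and 5974.0 in control cells, and the coreceptor gene Cd4 read 4586.4 and 5106.0 in anergic cells, against 4084.1 and 3941.8 in control cells. In RNA from many cells, fewer cells that express a gene and less of its RNA per cell cannot be told apart.

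Cd6 was the member that differed most. Its probe set 92203_s_at read 4533.6 and 3129.4 on anergic arrays 1 and 2, against 16.2 and 14.1 on control arrays 1 and 2. Both control values lay below the 20th percentile of their own array, near the bottom of what the array reads, while the anergic values lay above its 95th percentile. The lower anergic array was 193 times as bright as the higher control array. Group means were 3832 ± 993 in anergic cells and 15.2 ± 1.48 in control cells (SD, n = 2 each), and the ratio of these means was 253. On the log2 scale, after adding a pseudocount of 29.15 that damps differences between dim values, the difference of anergic minus control was 6.42.

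The other Cd6 probe set, 92204_at, read 2480.8 and 1625.1 in anergic cells, against 76.1 and 91.5 in control cells, and its groups did not overlap either. Its means were 2053 ± 605 in anergic cells and 83.8 ± 10.9 in control cells (SD, n = 2 each). The ratio of means was 24.5, and the log2 difference was 4.18. Both probe sets were brighter on anergic array 1 than on anergic array 2, by ratios of 1.45 and 1.53. Between the control arrays, where both were dim, they went opposite ways. The size of the difference was less certain than its direction, because it depends on how the dim control values are treated. With a pseudocount of 1 the differences of 92203_s_at and 92204_at were 7.87 and 4.57, and with one at the array median they were 4.48 and 3.15.

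**Figure D1:**
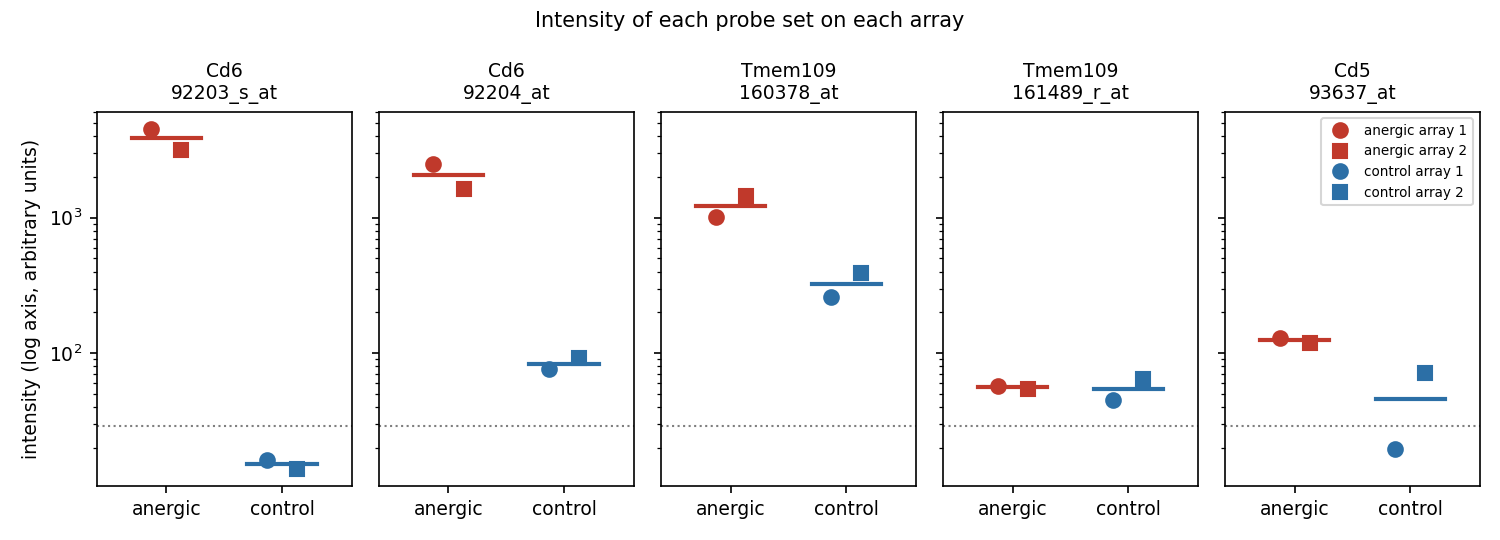
Intensity (log axis, arbitrary units) of the 5 probe sets of Cd6, Tmem109 and Cd5 on the 2 anergic (red) and 2 control (blue) arrays. Bars are group means, symbols are arrays, and the dotted line marks 29.15, the median over arrays of the 20th percentile. Cd6 reads 1625.1 to 4533.6 in anergic cells, against 14.1 to 91.5 in control cells, Tmem109 differs at 160378_at but not at 161489_r_at, and Cd5 stays dim in both groups.

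Cd5, the paralogue known as a brake on receptor signalling, was dim. Its only probe set, 93637_at, read 130.5 and 118.3 on the anergic arrays, against 19.8 and 71.9 on the control arrays. The groups did not overlap, but the intensities of the control arrays differed from each other by more than those of the lower anergic and the higher control array, whose ratio was 1.65. The means were 124 ± 8.63 in anergic cells and 45.9 ± 36.8 in control cells (SD, n = 2 each), and the log2 difference was 1.13. It was 0.60 without control array 1 and 1.65 without control array 2, so a single control array moves it by more than 1.5 times. With the pseudocount at the array median it was 0.48. The mean brightness of this probe set was below the limit for testing, so Cd5 was not part of the tested genes.

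Tmem109 was measured by 2 probe sets that differ. At 160378_at it read 1001.2 and 1435.9 in anergic cells, against 261.6 and 387.9 in control cells, with no overlap. The means were 1219 ± 307 in anergic cells and 325 ± 89.3 in control cells (SD, n = 2 each), with a ratio of 3.75 and a log2 difference of 1.82. The labels do not pair arrays of like number. Taken as pairs nonetheless, arrays 1 and arrays 2 gave log2 differences of 6.65 and 6.19 for 92203_s_at and 4.58 and 3.78 for 92204_at. For Cd5 they were 1.71 and 0.55, and for 160378_at 1.83 and 1.81. At 161489_r_at, by contrast, the values were 57.8 and 54.9 in anergic cells, against 45.4 and 64.4 in control cells. These groups overlapped, the log2 difference was 0.03, and the probe set was too dim to be tested. The statement that Tmem109 was higher in anergic cells therefore rests on 160378_at alone.

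In all, 4 of the 5 member probe sets had both anergic arrays above both control arrays, and 3 of the 5 passed the brightness limit, an intensity of about 92.4. Both Cd6 probe sets passed it through their anergic arrays alone. Over all 12422 probe sets 13.5% had both anergic arrays above both control arrays. Since the members were chosen from this contrast, nothing is read from their count. With limma across the 7453 tested probe sets, 0.912% were called higher and 0.429% lower in anergic cells, and no such call is given for the members. The directions of these 4 probe sets were the same under every pseudocount, scaling and left-out array tried, which for pseudocounts and left-out arrays follows from groups that do not overlap. Without control array 2 the differences were 6.39 (92203_s_at), 4.28 (92204_at) and 2.08 (160378_at). The plot of differences by setting shows their spread.

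**Figure D2:**
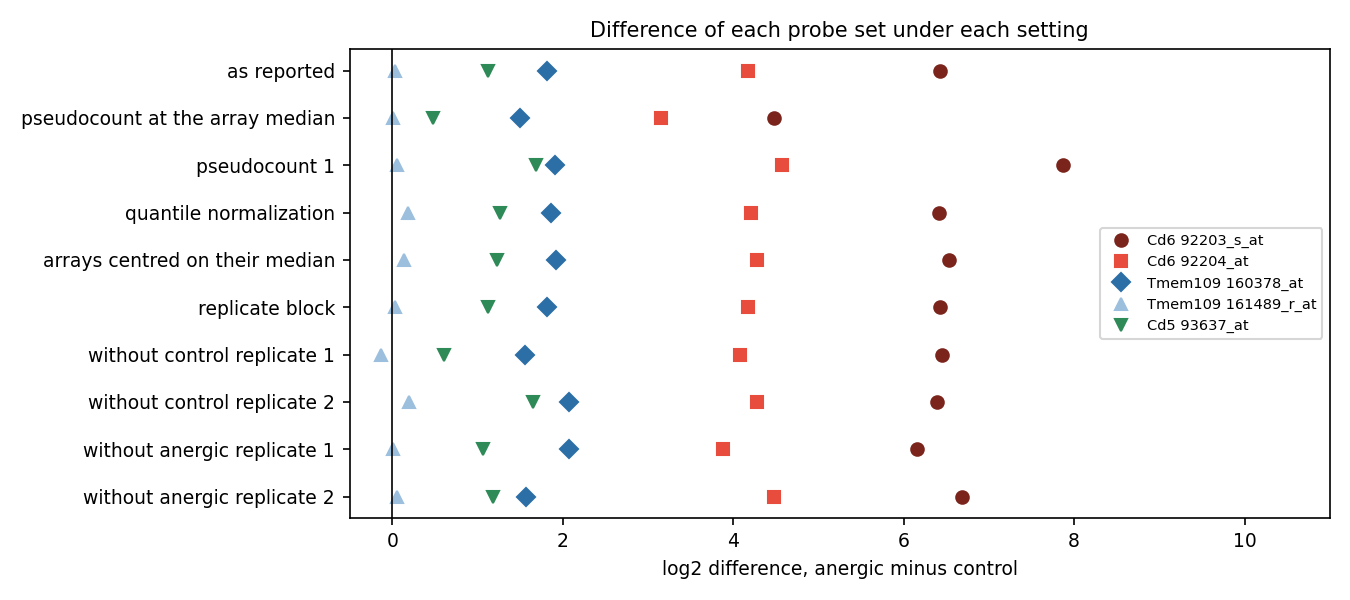
Log2 difference, anergic minus control, of each of the 5 probe sets (horizontal axis) as reported and under each alternative (rows). Both Cd6 probe sets stay furthest to the right in every row and move mainly with the pseudocount, 161489_r_at stays near 0, and Cd5 shifts between 0.48 and 1.69.

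The ligands of CD5 and CD6 were tested with limma across all 5583 genes, where 1.33% were called higher and 0.842% lower in anergic cells at an adjusted p of 0.05. Of 5 ligand genes tested, 0 rose and 0 fell by limma, with 2 at an unadjusted p under 0.05, a mark that 12.7% of all genes tested reached. Alcam, which encodes the CD6 ligand, read 2496.8 and 1866.8 in anergic cells, against 1045.6 and 1541.9 in control cells, a log2 difference of 0.75 ± 0.28 (SE, limma adjusted p = 0.285). Its groups did not overlap, and the difference was 1.03 without control array 2 and 0.48 without control array 1. Cdcp1, a further CD6 ligand reported in human cells, differed by -0.54 ± 0.32 (SE, limma adjusted p = 0.565). Lgals3, which encodes a galectin, a sugar-binding protein reported to bind CD6 in human cells, read 2847.6 and 2772.3 in anergic cells, against 4506.5 and 5787.6 in control cells. That is a log2 difference of -0.86 ± 0.23 (SE, limma adjusted p = 0.116), and it was -1.03 without control array 1 and -0.68 without control array 2. Cd72, a reported partner of CD5 on B cells, was too dim to test. The median log2 difference of the list was -0.38, beside -0.09 for all genes.

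Among the molecules reported to bind the inner tails of CD5 and CD6, 15 were tested, of which 0 rose, 1 fell and 14 did not pass. Ptpn6, which encodes the phosphatase SHP-1 that has been reported at the CD5 tail, fell to 335.7 and 338.8 in anergic cells, against 882.1 and 1028.8 in control cells, a log2 difference of -1.42 ± 0.28 (SE, limma adjusted p = 0.0298). Its call ended with no brightness limit, quantile normalization, centring or no intensity trend. Over all alternatives its difference lay between -1.53 and -1.16. Lcp2, encoding the adaptor SLP-76 that binds the CD6 tail, read 5506.8 and 5491.2 in anergic cells, against 3126.3 and 3328.4 in control cells. Its log2 difference of 0.76 ± 0.22 (SE) did not pass (limma adjusted p = 0.135). The kinase gene Fyn differed by 0.86 ± 0.31 (SE, limma adjusted p = 0.273), at 1.31 without control array 1 and 0.42 without control array 2. The list's median was 0.08, with 8 genes higher and 7 lower by sign.

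A list of genes of the T cell receptor complex, coreceptors, tetraspanins and other T cell proteins showed 0 calls by limma among 14 tested. Of these, 3 were at an unadjusted p under 0.05 (12.7% of all genes), and the list's median was 0.12. The largest difference was that of Cd81, a tetraspanin gene, which read 963.3 and 774.8 in anergic cells, against 300.3 and 370.0 in control cells. Its log2 difference was 1.30 ± 0.29 (SE, limma adjusted p = 0.0577). Cd81 has 1 probe set, so averaging a gene's probe sets left its difference at 1.30. Its limma adjusted p in that fit of all genes was 0.0486, which passed. The difference of Cd81 was 1.44 without control array 2 and 1.16 without control array 1. The receptor chain gene Cd3d differed by 0.68 ± 0.29 (SE, limma adjusted p = 0.361), at 1.08 without control array 2 and 0.29 without control array 1. Thy1, a surface marker of T cells, differed by -0.60 ± 0.23 (SE, limma adjusted p = 0.297).

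Transcription factors of families described at lymphocyte receptor promoters, or induced by the T cell receptor, gave 1 gene higher, 0 lower and 17 that did not pass among 18 tested. The gene that rose was Egr2, a factor known for its role in T cell anergy, at 3501.4 and 7914.3 in anergic cells, against 955.9 and 657.6 in control cells. Its log2 difference was 2.69 ± 0.37 (SE, limma adjusted p = 0.0048), and its call ended without the intensity trend (limma adjusted p = 0.0551). Id2, an inhibitor of E proteins, differed by -0.60 ± 0.23 (SE, limma adjusted p = 0.306), at -0.82 without control array 1 and -0.38 without control array 2. The Ets family gene Elk3 differed by 0.52 ± 0.31 (SE, limma adjusted p = 0.58). The list's median was -0.02.

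Genes of calcium and cation handling in the endoplasmic reticulum, set beside the channel gene Tmem109, gave 0 calls by limma among 12 tested, with 2 at an unadjusted p under 0.05, a share near the 12.7% of all genes. These were the calcium pump genes Atp2a3 and Atp2a2. Atp2a3 read 1489.6 and 1265.3 in anergic cells, against 2668.7 and 2600.0 in control cells, a log2 difference of -0.93 ± 0.24 (SE, limma adjusted p = 0.093). Atp2a2 differed by -0.89 ± 0.38 (SE, limma adjusted p = 0.361). Calu, which encodes a calcium-binding protein, differed by 0.42 ± 0.26 (SE, limma adjusted p = 0.586), and the list's median was -0.04.

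The rest of the scavenger receptor cysteine-rich family was mostly dim. Of 10 further family members on the array 8 were below the limit for testing, among them Cd5l, Msr1 and Marco, which are genes of macrophages. Neither of the other two passed, with 1 at an unadjusted p under 0.05. Lgals3bp, which encodes a secreted galectin-binding protein, differed by -0.67 ± 0.27 (SE, limma adjusted p = 0.325), and the protease gene Prss12 by -0.37 ± 0.51 (SE, limma adjusted p = 0.876), a sign that turned without control array 1.

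**Figure D3:**
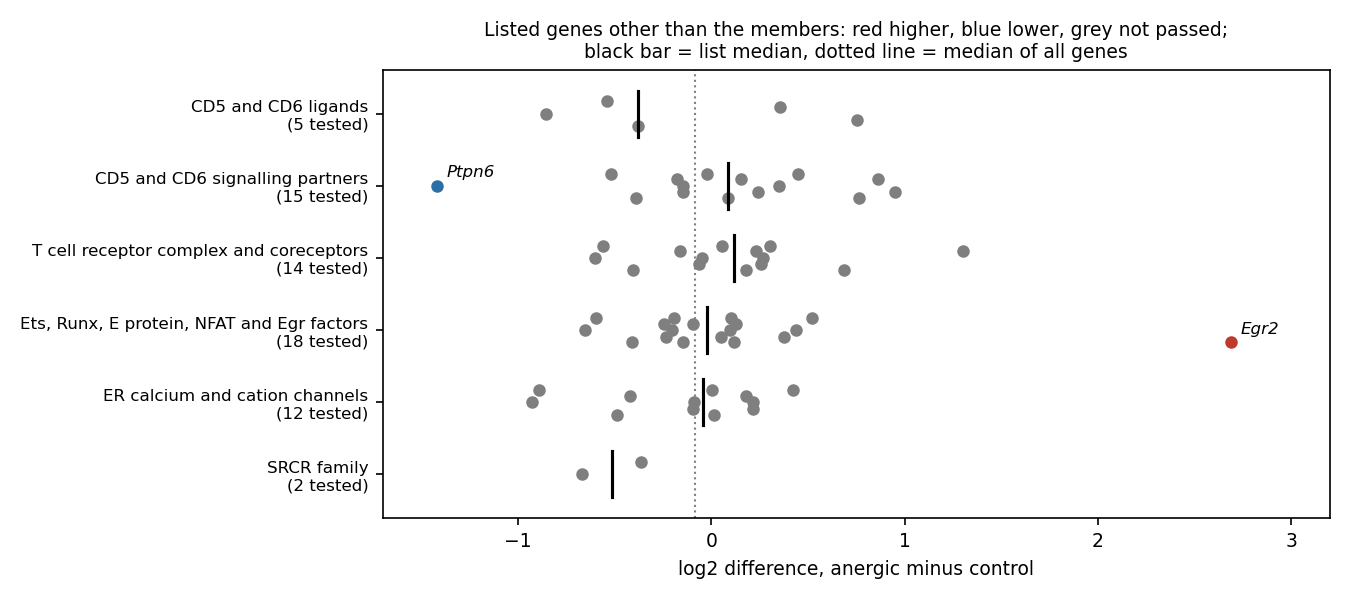
Log2 difference, anergic minus control, of the tested genes of each list (rows), leaving out Cd5, Cd6 and Tmem109. Black bars are list medians, the dotted line is the median of all genes, and points are jittered vertically only. Egr2 (red) rose, Ptpn6 (blue) fell, and all other points did not pass the test.

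No tested neighbour of the members on chromosome 19 passed the test. A window of 67 RefSeq genes reaching 10 measured genes to each side held 20 neighbours with a probe set, of which 17 were tested. Of these, 0 rose and 0 fell by limma, where 1.33% of all genes tested were called higher and 0.842% lower. An unadjusted p under 0.05 was reached by 1, beside 12.7% of all genes. With shares so small, 0 calls among 17 genes do not set the neighbours apart from other genes. Their log2 differences had a median of 0.00, and those of all 20 lay between -0.997 and 0.799. All 3 members, which were chosen for their difference, lay above that range at their brightest probe set, but Cd5 lay inside it, at 0.60, without control array 1. The nearest measured gene before Cd5 was Vps37c, which encodes a sorting protein of endosomes, at 415.0 and 389.4 in anergic cells, against 472.9 and 353.7 in control cells. The next ones were the DNA repair gene Ddb1 (log2 difference 0.10) and the RNA processing gene Cpsf7 (-0.63). On the far side, the splicing gene Prpf19 lay next to Tmem109 and differed by -0.23 ± 0.42 (SE, limma adjusted p = 0.906).

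Farther along on that side were Zp1, a gene known from the egg coat, with a log2 difference of 0.79 ± 0.47 (SE, limma adjusted p = 0.568), and the prostaglandin receptor gene Ptgdr2 at -0.08. The neighbour with the unadjusted p under 0.05 was Ccdc86, which is named because of its value. It read 119.0 and 104.7 in anergic cells, against 266.6 and 238.1 in control cells (log2 difference -0.997 ± 0.391, SE, limma adjusted p = 0.312).

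**Figure D4:**
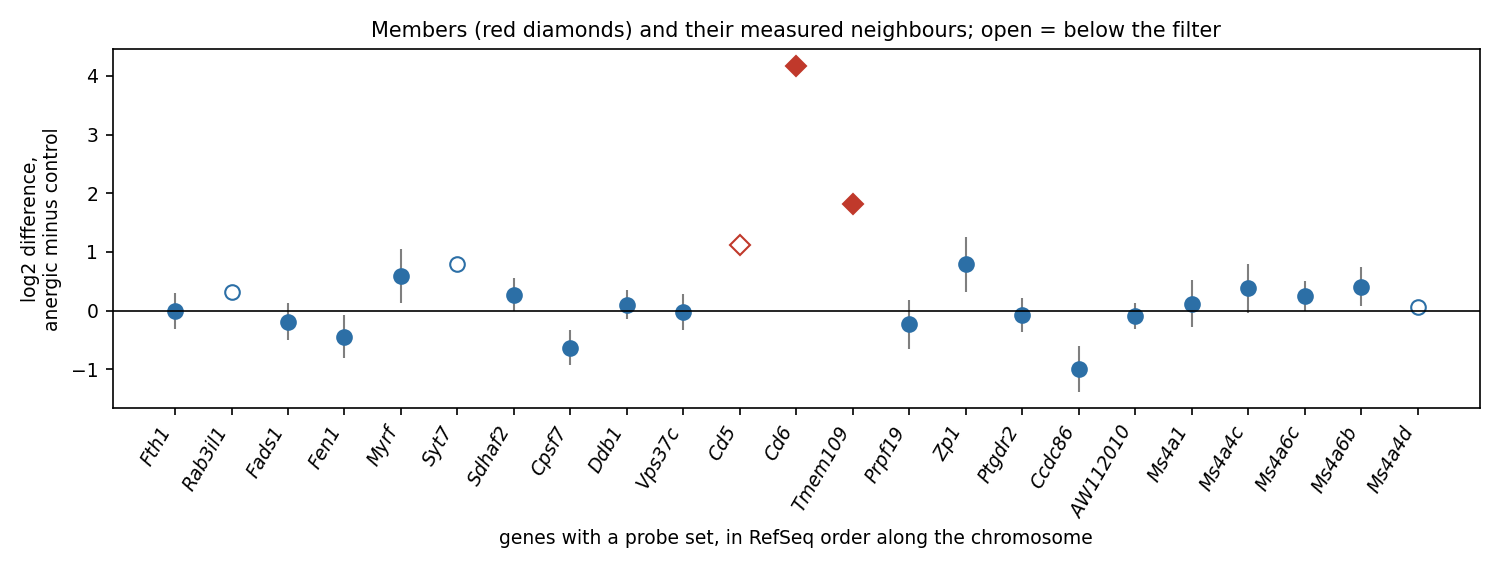
Log2 difference, anergic minus control, of Cd5, Cd6 and Tmem109 (red diamonds, brightest probe set) and of 20 measured neighbours (blue circles) in their order along the chromosome. Grey bars are the standard errors of tested neighbours, and open symbols are genes below the limit for testing. Cd6 stands at 4.18, Tmem109 at 1.82 and Cd5 at 1.13, while the neighbours lie between -0.997 and 0.799.

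The genes whose values over the 4 arrays were most like those of each member were found by the Euclidean distance between log2 values, each centred on its own mean. Nearest to Cd6 (92204_at) were Pdzk1ip1, Vamp5, F11r and Fhl2, at distances of 0.26 to 0.78, where the median gene lay at 4.33. Like Cd6, Vamp5 was dim in control cells, with 1418.0 and 990.0 in anergic cells, against 50 and 27.6 in control cells. Nearest to Tmem109 (160378_at) were Tfeb, which encodes a regulator of lysosome genes, Cd200, Tmbim1 and the integrin gene Itgb2, at distances of 0.11 to 0.39 and a median of 2.01. Tfeb read 198.6 and 263.7 in anergic cells, against 32.6 and 62.2 in control cells.

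Nearest to Cd5 were Xrn1, Cd320, Siae and Tnfaip3, the gene of the NF-kB inhibitor A20, at distances of 0.15 to 0.22 and a median of 1.49. All 4 shared with Cd5 a lower value on control array 1 than on control array 2, which picking the nearest genes favours. The members themselves lay 3.13 (Cd5 and Cd6), 2.50 (Cd6 and Tmem109) and 0.90 (Cd5 and Tmem109) apart. The median gene lay at 4.33 from Cd6, 2.01 from Tmem109 and 1.49 from Cd5. The genes named are nearer because they were picked as the nearest. Since the members were chosen from this contrast, nothing is read from how near they lie to each other. With 4 arrays, such distances describe these arrays and carry no test.

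**Figure D5:**
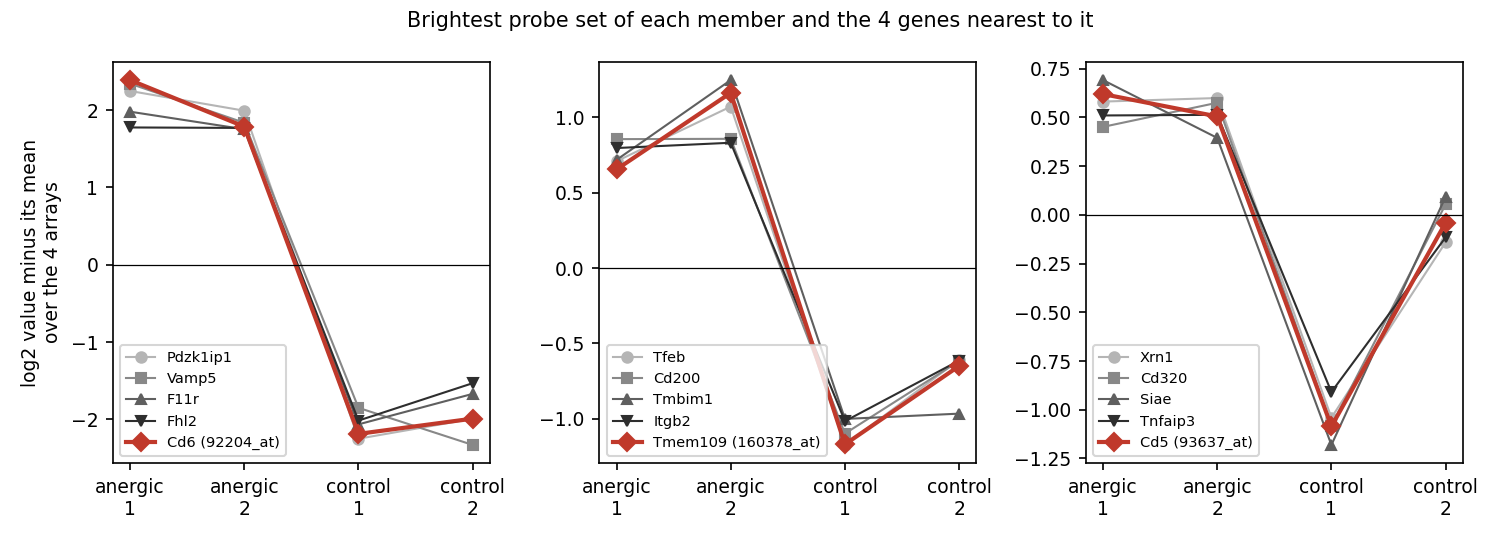
Log2 value minus its mean over the 4 arrays (vertical axis, a separate scale in each panel) for the brightest probe set of Cd6, Tmem109 and Cd5 (red) and the 4 genes nearest to each (grey). The 4 positions are separate arrays and the lines only join values of a gene. The Cd6 panel spans over 4 log2 units. In the Cd5 panel control array 1 lies below control array 2 for Cd5 and for the 4 genes picked as nearest to it.

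Markers of other cells that could carry CD5 or scavenger receptors were examined beside these values. Of 11 B cell markers on the array 7 were bright enough to be tested and 0 of these passed by limma in either direction, with 0 at an unadjusted p under 0.05. The summed intensity of all 11 was 986.7 and 1647 on the anergic arrays, against 1306 and 2252 on the control arrays. Of 12 macrophage and dendritic cell markers 6 were tested, of which 1 rose and 0 fell, with 2 at an unadjusted p under 0.05, and the sums over all 12 were 1865 and 2644 in anergic cells, against 1667 and 2325 in control cells. The one that rose was Cd68, a lysosomal protein gene, at 497.6 and 531.5 in anergic cells, against 71.0 and 91.3 in control cells (log2 difference 2.31 ± 0.36, SE, limma adjusted p = 0.0103). Without anergic array 1 the difference of Cd68 was 2.35, and without anergic array 2 it was 2.26. Mpeg1, the other one at an unadjusted p under 0.05, differed by -0.95 (limma adjusted p = 0.389), at 93.8 and 155.8 in anergic cells, against 213.6 and 320.0 in control cells. Cd14 was the brightest of the list, at 684.4 and 858.2 in anergic cells, against 764.1 and 931.9 in control cells. Among those too dim to test, Adgre1, which defines macrophages, was at 36.4 and 36.9 in anergic cells, against 24.0 and 20.2 in control cells, and Lyz2 was at 11.7 and 11.4 in anergic cells, against 129.1 and 73.3 in control cells. Of 7 markers of CD8 T and NK cells 3 were tested and 0 of these passed by limma, with 0 at an unadjusted p under 0.05. Klrd1, a gene of a receptor of NK and some T cells, read 5139.0 and 4722.9 in anergic cells, against 4303.9 and 5510.9 in control cells. Klrk1, which encodes the receptor NKG2D, read 894.7 and 1162.0 in anergic cells, against 190.7 and 1019.7 in control cells (log2 difference 1.13, limma adjusted p = 0.488). Cd8a, too dim to test, lay between 6.2 and 18.0 on the 4 arrays. The sums over all 7 were 6223 and 6241 in anergic cells, against 4764 and 6950 in control cells. No marker listed stood at 0, since the lowest deposited values of the arrays are above it. The markers given by name were chosen after their values were seen. The part of other cells in the values of Cd5, Cd6 and Tmem109 was not tested.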

How the data were processed

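Intensities of 12488 probe sets on 4 arrays were taken as the authors deposited them, on a linear scale. Per the labels' protocols, total RNA came from a Trizol extraction and was turned into biotinylated targets. How the scanner values were corrected and summarised is not given in the sources used here. Detection calls were not used. Samples were grouped by title. The values themselves show scaling before deposit. The precision is limited by the number of arrays, and the spread between them may be technical. The p-values set each difference against a spread that limma draws largely from other genes of like brightness. That shared part counted for 7.74 degrees of freedom, against 2 for a gene's own arrays.

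Gene symbols come from the platform annotation at GEO, updated by gene ID through a RefSeq gene table (GRCm38.p6), where 10817 of 10833 single-symbol probe sets matched. No array build is named, so the only coordinates given are those of the promoter windows of Cd5 and Tmem109, and sequences are RefSeq's. Values became log2(intensity + 29.15), the pseudocount being the median over arrays of the 20th percentile. Without the 66 control probe sets, those with a mean log2 value over the 40th percentile were tested. A gene was its single-symbol probe set with the highest mean. The groups' difference was fitted in R 4.3.3 by limma 3.58.1 (lmFit, then eBayes with its trend option), with two-sided p-values adjusted by Benjamini-Hochberg over all 5583 genes. The code was tested on simulated data. With 2 arrays a group, the smallest two-sided p of an exact permutation test is 0.333.

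The members, lists and tests were chosen with earlier results of these data known. Named are all member probe sets; in each list, genes called and the up to 3 with the smallest p; 3 measured neighbours per side; and 4 genes of most similar pattern per member. Cd3e, Cd4, Ccdc86, Cd72, the scavenger receptor genes too dim to test and markers of other cells are named outside this rule. A comparison of the proteins was planned and not made. The alternatives covered pseudocount, brightness limit, normalization, probe set averaging, intensity trend, a replicate block and leaving out each array.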

Additional observations from a re-analysis of the deposited data

How the results depend on the processing

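A pseudocount at the array median gave log2 differences of 0.48 (Cd5), 4.48 (Cd6, 92203_s_at) and 3.15 (Cd6, 92204_at), and with a pseudocount of 1 they were 1.69, 7.87 and 4.57. Leaving out 1 array gave 0.60 to 1.65 for Cd5, 6.16 to 6.69 and 3.88 to 4.48 for Cd6, and 1.56 to 2.08 and -0.13 to 0.20 for Tmem109. Over all genes, 74 were higher and 47 lower, against 68 and 32 probe sets. Centring gave 47 and 13 genes and 12 lower probe sets, no trend gave 32 and 12 genes and 28 and 10 probe sets, and no brightness limit gave 30 lower genes and 42 and 17 probe sets. Leaving out 1 array gave 30 to 168 higher and 24 to 114 lower genes, and 26 to 208 and 17 to 136 probe sets. The counts with 1 array left out come from fits in which a group holds a single array, so they do not measure how stable the calls are. The cause of the changes in these counts was not tested.

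Arrays of the same number deviated together from their group means (r = 0.537 over tested probe sets), but the labels state no pairing. With the replicate number as a block, 348 genes were higher and 359 lower, and 389 and 372 probe sets. The block left the differences of Cd5, Cd6 and Tmem109 as they were (1.13 for Cd5). In the lists it called 1 ligand gene higher and 1 lower, 2 partner genes higher and 2 channel genes lower. It also called 1 scavenger receptor family gene lower, 1 neighbour lower and, in the receptor complex and coreceptor list, the tetraspanin gene Cd81 higher. Ptpn6, the partner that fell, gave 0 lower with no brightness limit, quantile normalization, centring and no trend. Egr2 gave 0 higher with no trend. The fit on the mean of a gene's probe sets also called Cd81 in that list, though Cd81 has 1 probe set and its difference did not change. Calls in the lists with 1 array left out are not given, since a group then holds a single array.

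Some genes that were not called changed sign. With arrays left out in turn, Ddb1 ranged from -0.10 to 0.31, Prpf19 from -0.80 to 0.34, Prss12 from -0.99 to 0.25, Ptgdr2 from -0.21 to 0.0544 and Vps37c from -0.22 to 0.17. With centring Ptgdr2 was at 0.0307 and Vps37c at 0.0823, and Vps37c was at 0.0531 with quantile normalization. Of the 37 genes refitted under the alternatives, no other changed sign. The Tmem109 probe set 161489_r_at did without control array 1.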
